A study of Mus musculus with 8 samples.

Results

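The 40 interferon-stimulated genes described here were chosen as a list of known targets of interferon and read from a mouse allograft experiment. They were found by matching the RefSeq accession of each array probe to a listed symbol, and 38 of the 40 members had at least 1 such probe, out of 18217 symbols named on the array. All 38 passed the filter on dim probes and were tested among 22922 genes or targets. Mx1 and Mx2 were not matched to a probe and are not analysed here. The 8 samples were single-colour (Cy3) Agilent arrays in 4 groups of 2, namely Keap1-/- TR MEFs grown as allografts, WT TR MEFs grown as allografts, Keap1-/- TR MEFs in dish culture and WT TR MEFs in dish culture. MEFs are mouse embryonic fibroblasts, and the labels do not spell out TR. For the allografts, 3000000 Keap1-/- cells or 10000000 WT cells were injected into nude (nu/nu) mice, and tumours were taken at a volume of 100 to 150 mm3. The amount of total RNA labelled was 500 ng for each array.

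Each genotype is present as a single line as far as the labels say, so genotype and line cannot be told apart, and the number of injected cells differed with genotype. KEAP1 is the adaptor that marks the transcription factor NRF2 for degradation, so that cells without it accumulate NRF2. Nude mice lack a thymus and most mature T cells, but keep macrophages, natural killer cells and B cells, and an allograft array reads the RNA of injected and host cells together. The labels do not state that the 2 arrays of a group came from separate cultures or animals, so p-values measure the spread between arrays, which may be technical.

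Interferon-stimulated genes are the antiviral programme that cells switch on after nucleic acid sensors trigger the secretion of interferons. Type I and type III interferons signal through JAK1 and TYK2 to a complex that contains STAT2 and IRF9 and binds the interferon-stimulated response element in promoters, whereas the response to interferon gamma runs through the gamma-activated sequence. The products sense foreign RNA, block viral translation, attach the ubiquitin-like protein ISG15 to targets, or feed back on the pathway. In tumours these genes can be read from malignant cells and from infiltrating immune cells alike.

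The share of probes with signal well above background was 70.2% to 75.1% per allograft array and 60.9% to 65% per dish array, and no spot was saturated. Levels are log2 processed intensity minus the 75th percentile of the same array, which lay between 1084 and 1546, so that a level of 0 equals that percentile, and levels were compared between groups for the same probe only. Keap1 itself had levels of 1.00 and 0.92 in Keap1-/- allografts, against 2.85 and 2.46 in WT allografts (log2 fold change -1.69 ± 0.17 SE, limma adjusted p = 0.000722). In dish it was 2.37 and 2.22 in Keap1-/- cells, against 3.32 and 2.99 in WT cells (log2 fold change -0.86 ± 0.17 SE, limma adjusted p = 0.0197). Whether this probe lies in the deleted stretch is not stated in the sources used here. The NRF2 target Nqo1 was higher in Keap1-/- samples, by 5.78 ± 0.10 in allograft and 3.60 ± 0.10 in dish on the log2 scale. All 8 fibroblast markers examined were well above background on all 8 arrays.

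Most interferon-stimulated genes were already measurable in dish culture. Of the 38 members, 34 were well above background on both Keap1-/- dish arrays and 35 on both WT dish arrays. Oas2, Oas3 and Ifi44 were not well above background on any of the 4 dish arrays, and Oas1a was so on 1 of the 2 Keap1-/- dish arrays. In allografts 37 members were well above background on both Keap1-/- arrays, Samd9l being the exception on both, and all 38 were on both WT arrays. The 33 members other than Oas1a, Oas2, Oas3, Samd9l and Ifi44 were well above background on all 8 arrays. The plot of levels by array shows each member in its role.

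**Figure D1:**
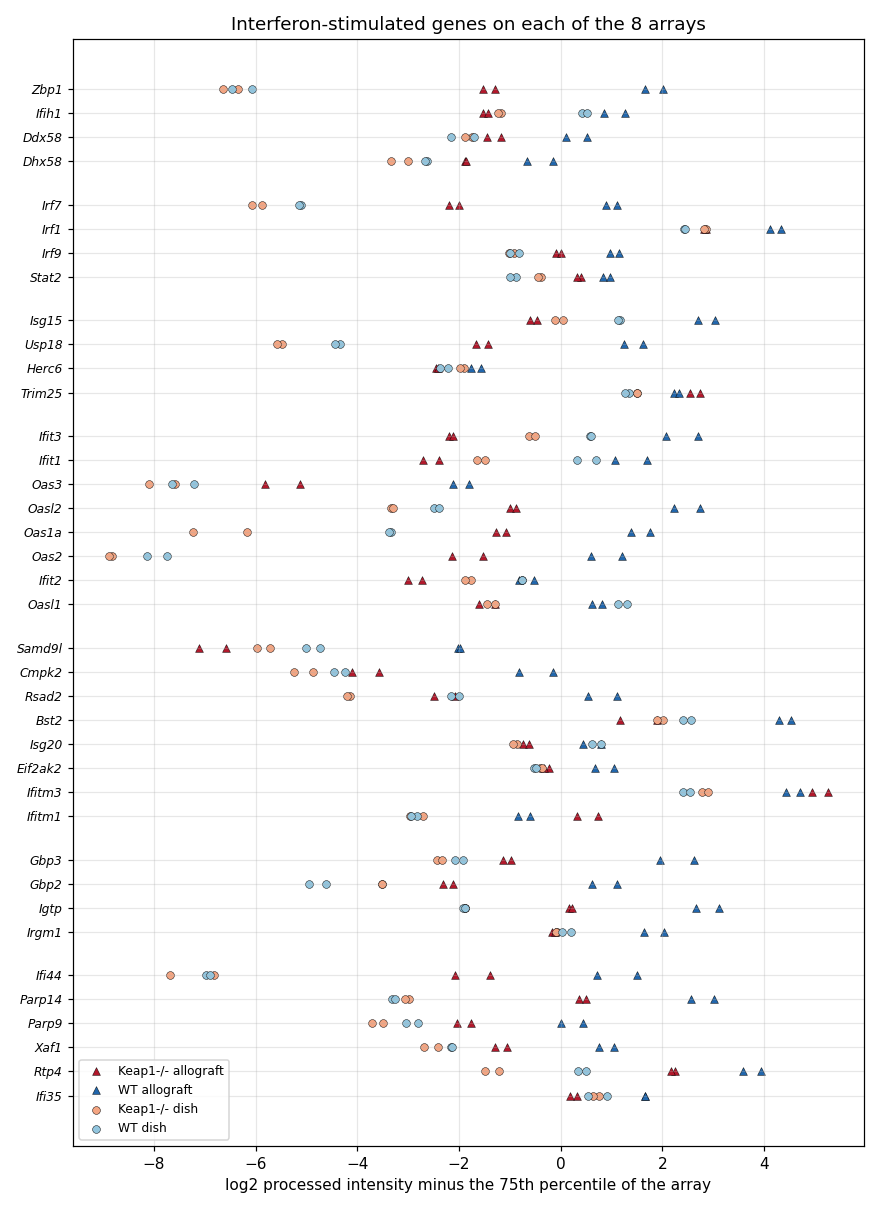
Level of each of the 38 interferon-stimulated genes on each of the 8 arrays (x axis, log2 processed intensity minus the 75th percentile of the array), grouped from top to bottom as sensors, transcription factors, the ISG15 system, IFIT and OAS proteins, other effectors, GTPases and other genes. Triangles are allografts, circles are dish cultures, red tones Keap1-/- and blue tones WT, and for 32 genes both WT allograft triangles lie right of all 6 other points.

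Promoter sequences are shown for 6 members, because the list was chosen as known targets of interferon. They are 1 member from each of 6 roles, among those described with all their values and holding a RefSeq window. Each window runs from 250 bases before to 50 bases after the annotated start in GRCm38.p6, is written 5′ to 3′ in the direction of the gene, and has in capitals each match to GAAA, any 2 bases and GAAA again, searched on both strands. These letters are the core of the interferon-stimulated response element, and overlapping matches run together. The windows are Ifih1 at chr2:62646206-62646505 on the minus strand, Irf7 at chr7:141266375-141266674 on the minus strand, Isg15 at chr4:156200769-156201068 on the minus strand, Ifit3 at chr19:34583279-34583578 on the plus strand, Samd9l at chr6:3399522-3399821 on the minus strand and Gbp3 at chr3:142559794-142560093 on the plus strand.
Ifih1: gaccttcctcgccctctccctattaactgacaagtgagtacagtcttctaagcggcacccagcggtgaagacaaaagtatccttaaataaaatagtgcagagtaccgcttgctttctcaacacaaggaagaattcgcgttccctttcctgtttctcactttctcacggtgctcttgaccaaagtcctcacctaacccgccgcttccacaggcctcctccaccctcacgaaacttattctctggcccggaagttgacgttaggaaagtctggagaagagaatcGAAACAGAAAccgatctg
Irf7: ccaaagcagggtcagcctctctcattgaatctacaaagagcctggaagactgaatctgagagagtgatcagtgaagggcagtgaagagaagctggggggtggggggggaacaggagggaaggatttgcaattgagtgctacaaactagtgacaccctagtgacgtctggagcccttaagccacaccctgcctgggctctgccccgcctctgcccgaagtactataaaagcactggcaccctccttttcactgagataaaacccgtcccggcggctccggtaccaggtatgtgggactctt
Isg15: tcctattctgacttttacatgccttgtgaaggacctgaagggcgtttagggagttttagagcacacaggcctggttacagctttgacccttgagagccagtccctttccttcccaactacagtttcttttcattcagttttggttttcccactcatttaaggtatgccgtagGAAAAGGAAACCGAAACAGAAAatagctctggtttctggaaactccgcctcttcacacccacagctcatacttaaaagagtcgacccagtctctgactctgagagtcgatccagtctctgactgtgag
Ifit3: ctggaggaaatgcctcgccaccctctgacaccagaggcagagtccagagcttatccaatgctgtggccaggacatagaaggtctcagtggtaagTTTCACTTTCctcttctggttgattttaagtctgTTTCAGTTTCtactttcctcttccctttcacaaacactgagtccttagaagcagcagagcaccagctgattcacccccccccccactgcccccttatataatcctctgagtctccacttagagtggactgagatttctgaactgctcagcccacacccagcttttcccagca
Samd9l: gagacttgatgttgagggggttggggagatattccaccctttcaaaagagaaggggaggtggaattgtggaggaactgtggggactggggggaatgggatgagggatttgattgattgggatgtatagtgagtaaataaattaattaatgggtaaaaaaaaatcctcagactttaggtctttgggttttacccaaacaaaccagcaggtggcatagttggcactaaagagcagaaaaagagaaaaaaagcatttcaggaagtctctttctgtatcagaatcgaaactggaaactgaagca
Gbp3: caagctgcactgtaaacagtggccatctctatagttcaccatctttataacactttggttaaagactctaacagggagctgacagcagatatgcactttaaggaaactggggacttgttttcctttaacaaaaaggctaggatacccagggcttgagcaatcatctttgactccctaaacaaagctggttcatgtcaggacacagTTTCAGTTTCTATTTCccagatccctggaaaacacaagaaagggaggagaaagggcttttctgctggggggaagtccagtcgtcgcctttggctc
The Isg15 window held 3 overlapping matches, the Ifit3 and Gbp3 windows 2 each and the Ifih1 window 1, while the Irf7 and Samd9l windows held none. RefSeq gives a second Gbp3 window, at chr3:142560106-142560405, which held none either. Of the 31 members with a RefSeq window, 16 (51.6%) had at least 1 match, against 3.99% of all 27025 genes with a window. The letters TTC, any 3 bases and GAA, the core of the gamma-activated sequence, were found in 9 of the 31 (29%), against 9.55% of all genes. A match describes letters in the window and is not evidence of binding.

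In allograft tumours the interferon-stimulated genes were lower in Keap1-/- than in WT nearly throughout. Of the 38 members, 35 were lower in Keap1-/- allografts and 3 were higher at an adjusted p under 0.05 (limma, Benjamini-Hochberg over all 22922 tested), where 21.3% of all genes were lower and 20.5% higher. The median log2 fold change was -2.44 over the members, against 0.00 over all genes tested. On slide 1, which held replicate 1 of all 4 groups, the members' median was -2.30, and on slide 2, which held replicate 2, it was -2.60. Samd9l, Ifit3, Ifit1, Oas3 and Oasl2 differed most, and the 3 genes that were higher were Ifitm1, Ifitm3 and Trim25. The 35 lower calls did not change when any one array was left out, and the count of higher calls fell to 1 without Keap1-/- dish replicate 1, Keap1-/- dish replicate 2, Keap1-/- allograft replicate 2 or WT allograft replicate 1.

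**Figure D2:**
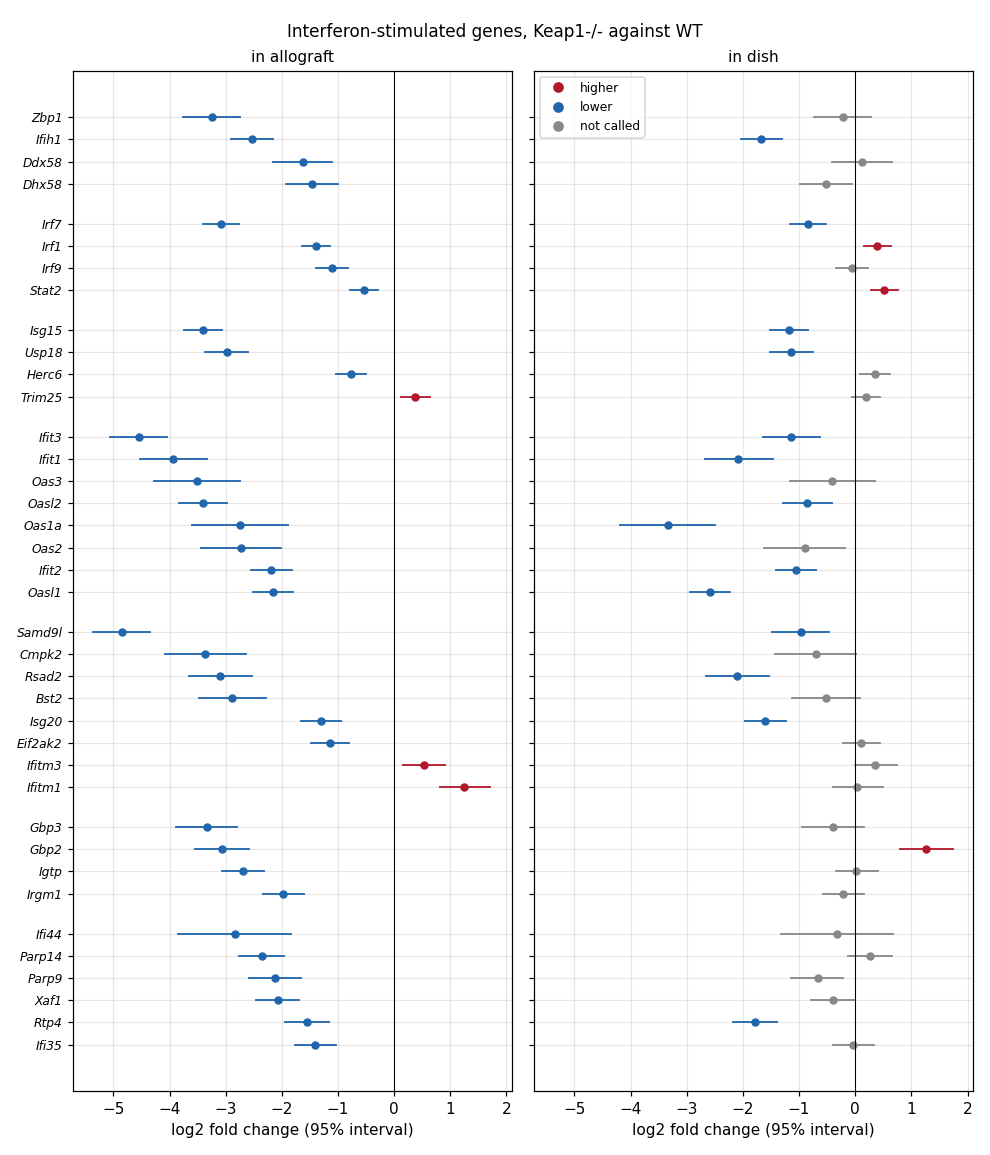
Log2 fold change of Keap1-/- against WT for the 38 interferon-stimulated genes in allograft (left) and in dish (right), with 95% intervals from the limma fit. Blue marks genes called lower, red genes called higher and grey genes not called: 35 of 38 are blue in allograft and 14 of 38 in dish, and the dish points of Oas2, Oas3 and Ifi44 come from signals that were not well above background.

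In dish the same contrast was smaller and mixed. By the same test 14 members were lower in Keap1-/- cells and 3 were higher, where 9.78% of all genes were lower and 11.4% higher. The members' median log2 fold change was -0.46 (-0.56 on slide 1, -0.46 on slide 2), against -0.05 over all genes. Leaving out the 3 members that were dim in both dish groups gave a median of -0.52 over 35. The lower genes included Oas1a, Oasl1, Rsad2, Ifit1 and Rtp4, and the higher ones were Gbp2, Stat2 and Irf1. The count of higher calls was 5 with slide, which equals the replicate number, as a block, the additions being Herc6 (adjusted p = 0.0454) and Ifitm3 (adjusted p = 0.0311), and the count of lower calls was 17, with Parp9, Xaf1 (adjusted p = 0.0397) and the dim Oas2 added. The count of higher calls was 1 without Keap1-/- dish replicate 1, Keap1-/- dish replicate 2 or WT dish replicate 2.

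The sensors of foreign nucleic acid come first in the pathway, and all 4 were lower in Keap1-/- allografts, by a median log2 fold change of -2.08, while 1 of 4 was lower in dish. Zbp1, which encodes a sensor of left-handed nucleic acid, had levels of -1.30 and -1.53 in Keap1-/- allografts, against 1.65 and 2.02 in WT allografts, a log2 fold change of -3.25 ± 0.21 SE (limma adjusted p = 0.000116). In dish Zbp1 was at -6.64 and -6.35 in Keap1-/- cells and at -6.08 and -6.47 in WT cells, and these values overlapped (adjusted p = 0.541). Both allograft groups lay far above both dish groups for Zbp1, with the WT allografts on top. Ifih1, which encodes MDA5, a sensor of long double-stranded RNA, was at -1.53 and -1.42 in Keap1-/- allografts, against 0.85 and 1.26 in WT allografts (log2 fold change -2.53 ± 0.15 SE, adjusted p = 9.41e-05). It was also lower in dish, at -1.17 and -1.23 in Keap1-/- cells, against 0.42 and 0.51 in WT cells (log2 fold change -1.67 ± 0.15 SE, adjusted p = 0.000989). Every Keap1-/- array was below every WT array for Ifih1. Ddx58, which encodes RIG-I, a sensor of RNA with a 5′ triphosphate, was at -1.17 and -1.44 in Keap1-/- allografts, against 0.52 and 0.11 in WT allografts (log2 fold change -1.62 ± 0.21 SE, adjusted p = 0.00196). Its dish levels of -1.74 and -1.89 in Keap1-/- cells lay within the range of -1.71 and -2.16 in WT cells. Dhx58, which encodes LGP2, a regulator of RIG-I and MDA5, was 2.76-fold lower in Keap1-/- allografts (adjusted p = 0.00184) and was not called in dish (adjusted p = 0.115).

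The transcription factors split by growth condition. All 4 were lower in Keap1-/- allografts, with a median log2 fold change of -1.25, whereas in dish Irf1 and Stat2 were called higher, Irf7 lower and Irf9 neither. Irf7, the factor that amplifies type I interferon production, was at -2.20 and -1.99 in Keap1-/- allografts, against 0.89 and 1.10 in WT allografts (log2 fold change -3.09 ± 0.13 SE, limma adjusted p = 2.98e-05). Its dish levels were -6.07 and -5.88 in Keap1-/- cells, against -5.11 and -5.15 in WT cells (log2 fold change -0.84 ± 0.13 SE, adjusted p = 0.00738). The genotypes did not overlap in either growth condition, and the dish call of Irf7 was lost without Keap1-/- dish replicate 1 (log2 fold change -0.75, adjusted p = 0.0561) and with normexp background correction (-0.32, adjusted p = 0.22). Irf1, an activator downstream of interferon gamma, was at 2.85 and 2.81 in Keap1-/- allografts, against 4.12 and 4.33 in WT allografts (log2 fold change -1.40 ± 0.10 SE, adjusted p = 0.000176). In dish it was at 2.85 and 2.82 in Keap1-/- cells, against 2.43 and 2.45 in WT cells (log2 fold change 0.39 ± 0.10 SE, adjusted p = 0.0404). Irf1 in Keap1-/- samples had nearly the same level in tumour and dish, between the WT dish and the WT allograft levels. The dish call of Irf1 was lost without any one of the 4 dish arrays (adjusted p 0.12 to 0.188) and without either Keap1-/- allograft array (0.0623).

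Irf9, the DNA-binding part of the complex with STAT2, was at -0.10 and 0.01 in Keap1-/- allografts, against 0.97 and 1.15 in WT allografts (log2 fold change -1.11 ± 0.11 SE, limma adjusted p = 0.000736). Its dish levels, -0.91 and -1.02 in Keap1-/- cells and -0.82 and -0.99 in WT cells, overlapped. Stat2, the transactivating part of that complex, was at 0.40 and 0.33 in Keap1-/- allografts, against 0.83 and 0.97 in WT allografts (log2 fold change -0.53 ± 0.10 SE, adjusted p = 0.00702). In dish the direction was opposite, with -0.39 and -0.44 in Keap1-/- cells, against -0.87 and -1.0 in WT cells (log2 fold change 0.52 ± 0.10 SE, adjusted p = 0.0154). The Stat2 groups did not overlap in either growth condition. The dish call of Stat2 was lost without Keap1-/- dish replicate 1 (adjusted p = 0.103), Keap1-/- dish replicate 2 (0.0825) or WT dish replicate 2 (0.074).

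Genes of the ISG15 and ubiquitin system followed the list with the exception of Trim25. Isg15, the ubiquitin-like modifier itself, was at -0.46 and -0.61 in Keap1-/- allografts, against 2.70 and 3.03 in WT allografts (log2 fold change -3.40 ± 0.14 SE, limma adjusted p = 2.82e-05). In dish Isg15 was at 0.04 and -0.12 in Keap1-/- cells, against 1.16 and 1.12 in WT cells (log2 fold change -1.18 ± 0.14 SE, adjusted p = 0.00273). The Keap1-/- allografts had the lowest Isg15 levels of the 4 groups and the WT allografts the highest. Usp18, the protease that removes ISG15 and damps the type I receptor, was at -1.66 and -1.43 in Keap1-/- allografts, against 1.24 and 1.62 in WT allografts (log2 fold change -2.98 ± 0.15 SE, adjusted p = 6.07e-05). Its dish levels were -5.48 and -5.58 in Keap1-/- cells, against -4.34 and -4.44 in WT cells (log2 fold change -1.14 ± 0.15 SE, adjusted p = 0.00469). Herc6, the mouse ligase that attaches ISG15, was at -2.45 and -2.42 in Keap1-/- allografts, against -1.76 and -1.57 in WT allografts (log2 fold change -0.77 ± 0.11 SE, adjusted p = 0.00246). In dish Herc6 was at -1.91 and -1.97 in Keap1-/- cells, against -2.38 and -2.22 in WT cells, which was not called (adjusted p = 0.0685). The arrays of the 2 Herc6 dish groups did not overlap, and the order of the genotypes was the reverse of that in tumours. Trim25, the ligase that activates RIG-I, was at 2.55 and 2.75 in Keap1-/- allografts, against 2.23 and 2.32 in WT allografts (log2 fold change 0.37 ± 0.10 SE, adjusted p = 0.0304). That call was lost without Keap1-/- allograft replicate 2 (0.28, adjusted p = 0.111), WT allograft replicate 1 (0.33, adjusted p = 0.13), WT allograft replicate 2 (adjusted p = 0.0729) or either Keap1-/- dish array (adjusted p = 0.0657). In dish Trim25 was at 1.51 and 1.51 in Keap1-/- cells and at 1.35 and 1.27 in WT cells (adjusted p = 0.242). The second probe of Trim25 gave, in allograft, a log2 fold change of 1.79.

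All 8 IFIT and OAS genes were lower in Keap1-/- allografts, with a median log2 fold change of -3.08, and 6 of the 8 were lower in dish, with a median of -1.10. IFIT proteins bind viral RNA and block its translation, and OAS enzymes make the oligoadenylate that activates RNase L. Ifit3 was at -2.20 and -2.12 in Keap1-/- allografts, against 2.07 and 2.71 in WT allografts, a log2 fold change of -4.55 ± 0.21 SE (23.4-fold, limma adjusted p = 3.76e-05). In dish it was at -0.63 and -0.50 in Keap1-/- cells, against 0.57 and 0.59 in WT cells (log2 fold change -1.14 ± 0.21 SE, adjusted p = 0.0136). The 2 genotypes of Ifit3 moved apart in both directions between dish and tumour, the Keap1-/- allografts lying lowest and the WT allografts highest. Its dish call was lost without any one of the 4 dish arrays (adjusted p 0.0612 to 0.081). Ifit1 was at -2.70 and -2.39 in Keap1-/- allografts, against 1.07 and 1.69 in WT allografts (log2 fold change -3.93 ± 0.24 SE, adjusted p = 0.000111). Its dish levels were -1.64 and -1.49 in Keap1-/- cells, against 0.33 and 0.69 in WT cells (log2 fold change -2.08 ± 0.24 SE, adjusted p = 0.00273). Every Keap1-/- array lay below every WT array for both Ifit1 and Ifit3. Oas3 was at -5.82 and -5.13 in Keap1-/- allografts, against -2.12 and -1.81 in WT allografts (log2 fold change -3.51 ± 0.31 SE, adjusted p = 0.000383). No dish fold is given for Oas3 or Oas2, since neither was well above background there.

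The remaining 5 genes of these families were Oasl2, Oas1a, Oas2, Ifit2 and Oasl1, with allograft log2 fold changes between -3.41 for Oasl2 and -2.16 for Oasl1. Oasl1 and Oas1a are given in full, a choice made after their values were seen. Oasl1, which in mouse inhibits translation of Irf7 messenger RNA, was at -1.60 and -1.29 in Keap1-/- allografts, against 0.62 and 0.81 in WT allografts (log2 fold change -2.16 ± 0.15 SE, limma adjusted p = 0.000151). In dish Oasl1 was at -1.30 and -1.45 in Keap1-/- cells, against 1.31 and 1.13 in WT cells (log2 fold change -2.59 ± 0.15 SE, adjusted p = 0.000181). All 4 Keap1-/- arrays were low and all 4 WT arrays high for Oasl1, with WT dish highest. Oas1a was at -1.27 and -1.08 in Keap1-/- allografts, against 1.38 and 1.76 in WT allografts (log2 fold change -2.75 ± 0.35 SE, adjusted p = 0.00162). In dish Oas1a was at -7.23 and -6.16 in Keap1-/- cells, only 1 of which was well above background, against -3.34 and -3.37 in WT cells (log2 fold change -3.34 ± 0.35 SE, adjusted p = 0.00172). With normexp background correction that dish value was -1.32, and the interaction of Oas1a, not called at 0.59, was called at -1.29 (adjusted p = 0.00508), so the size of its dish difference rests on the background correction. The dish call of Oasl2, a log2 fold change of -0.85, was lost without any one of the 4 dish arrays (adjusted p 0.0744 to 0.105).

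Among the other antiviral effectors 6 of 8 were lower and 2 were higher in Keap1-/- allografts, and 3 of 8 were lower in dish. Samd9l, an inhibitor of poxvirus replication, had the largest fitted difference of all members. It was at -6.58 and -7.12 in Keap1-/- allografts, where it was not well above background on either array, against -2.01 and -1.98 in WT allografts, and was thus at least 25.2-fold lower (limma adjusted p = 3.16e-05). In dish Samd9l was at -5.98 and -5.71 in Keap1-/- cells, against -5.01 and -4.74 in WT cells (log2 fold change -0.97 ± 0.21 SE, adjusted p = 0.024). That dish call was lost without any one of the 4 dish arrays (adjusted p 0.0598 to 0.129). Cmpk2, a mitochondrial nucleotide kinase encoded beside Rsad2, was at -4.10 and -3.58 in Keap1-/- allografts, against -0.82 and -0.15 in WT allografts (log2 fold change -3.36 ± 0.29 SE, adjusted p = 0.000369). Its dish levels were -4.87 and -5.25 in Keap1-/- cells and -4.46 and -4.25 in WT cells, a difference that was not called (adjusted p = 0.157). Rsad2, which encodes viperin, was lower in both conditions. It was at -2.49 and -2.07 in Keap1-/- allografts, against 0.54 and 1.10 in WT allografts (log2 fold change -3.10 ± 0.23 SE, adjusted p = 0.000195). In dish Rsad2 was at -4.14 and -4.21 in Keap1-/- cells, against -2.16 and -1.99 in WT cells (log2 fold change -2.10 ± 0.23 SE, adjusted p = 0.00204). Neither condition had overlapping Rsad2 levels.

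Bst2, which encodes tetherin, was 7.37-fold lower in Keap1-/- allografts (adjusted p = 0.000337) and Eif2ak2, which encodes the kinase PKR, 2.20-fold lower (adjusted p = 0.00138), and neither was called in dish. Isg20, an exonuclease, was 2.46-fold lower in allograft and 3.03-fold lower in dish. The interferon-induced transmembrane proteins, which block the fusion of viruses with endosomes, went the other way. Ifitm1 was at 0.32 and 0.74 in Keap1-/- allografts, against -0.61 and -0.83 in WT allografts (log2 fold change 1.25 ± 0.18 SE, limma adjusted p = 0.00281). In dish Ifitm1 was at -2.97 and -2.71 in Keap1-/- cells and at -2.82 and -2.95 in WT cells, and these overlapped. Ifitm3 was at 4.95 and 5.25 in Keap1-/- allografts, against 4.44 and 4.71 in WT allografts (log2 fold change 0.53 ± 0.15 SE, adjusted p = 0.0362), and at 2.78 and 2.90 in Keap1-/- dish cells, against 2.40 and 2.55 in WT dish cells (0.36 ± 0.15 SE, adjusted p = 0.161). The Ifitm1 and Ifitm3 arrays did not overlap between the genotypes in allograft. The allograft call of Ifitm3 was lost without any one array except Keap1-/- allograft replicate 1 and WT allograft replicate 2, with log2 fold changes of 0.38 without Keap1-/- allograft replicate 2 (adjusted p = 0.14) and 0.39 without WT allograft replicate 1 (adjusted p = 0.16).

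The interferon-induced GTPases, which attack the vacuoles of intracellular pathogens, were lower in Keap1-/- allografts in 4 of 4 cases, with a median log2 fold change of -2.88, and in dish 1 was called higher and 3 were not called. Gbp3 was at -1.14 and -0.98 in Keap1-/- allografts, against 1.95 and 2.62 in WT allografts (log2 fold change -3.34 ± 0.22 SE, limma adjusted p = 0.000135). Its dish levels were -2.43 and -2.34 in Keap1-/- cells and -2.07 and -1.92 in WT cells, and this difference was not called (adjusted p = 0.292). The Gbp3 genotypes were thus ordered alike in both conditions, with the wider gap in tumours. Gbp2 was at -2.31 and -2.11 in Keap1-/- allografts, against 0.62 and 1.10 in WT allografts (log2 fold change -3.07 ± 0.19 SE, adjusted p = 0.000115). In dish the order was reversed, with -3.51 and -3.52 in Keap1-/- cells, against -4.94 and -4.62 in WT cells (log2 fold change 1.26 ± 0.19 SE, adjusted p = 0.00731). With normexp background correction the dish value of Gbp2 was 0.60 and no longer called (adjusted p = 0.055). Igtp, also called Irgm3, was at 0.17 and 0.22 in Keap1-/- allografts, against 2.67 and 3.12 in WT allografts (log2 fold change -2.70 ± 0.15 SE, adjusted p = 8.04e-05). The 4 dish arrays of Igtp lay between -1.93 and -1.88, so that the genotypes were apart in tumours and overlapped in culture. Irgm1, another immunity-related GTPase, was 3.93-fold lower in Keap1-/- allografts (adjusted p = 0.000218).

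All 6 remaining interferon-induced genes were lower in Keap1-/- allografts, and 1 of them, Rtp4, was lower in dish. Ifi44 was at -2.08 and -1.39 in Keap1-/- allografts, against 0.71 and 1.51 in WT allografts (log2 fold change -2.84 ± 0.41 SE, limma adjusted p = 0.00274). Parp14, a mono-ADP-ribosyltransferase, was at 0.37 and 0.50 in Keap1-/- allografts, against 2.57 and 3.02 in WT allografts (log2 fold change -2.36 ± 0.16 SE, adjusted p = 0.000153). Its dish levels were -2.98 and -3.06 in Keap1-/- cells and -3.31 and -3.25 in WT cells, a difference that was not called (adjusted p = 0.334). The order of the Parp14 genotypes in dish was the reverse of that in tumours. Parp9, the inactive partner of the ligase DTX3L, was at -2.04 and -1.77 in Keap1-/- allografts, against 0.01 and 0.43 in WT allografts (log2 fold change -2.12 ± 0.19 SE, adjusted p = 0.000409). In dish Parp9 was at -3.71 and -3.49 in Keap1-/- cells, against -3.04 and -2.81 in WT cells (log2 fold change -0.67 ± 0.19 SE), which was not called (adjusted p = 0.0563) but was with slide as a block (adjusted p = 0.00562), with median scaling (0.0145) and under 4 other alternatives (0.0378 to 0.0492). The groups of Parp9 did not overlap in dish or in tumour. Xaf1, a proapoptotic protein, was 4.20-fold lower in Keap1-/- allografts. Rtp4, named in full after its values were seen, was at 2.25 and 2.18 in Keap1-/- allografts, against 3.59 and 3.95 in WT allografts (log2 fold change -1.55 ± 0.16 SE, adjusted p = 0.000688). In dish it was at -1.22 and -1.48 in Keap1-/- cells, against 0.50 and 0.35 in WT cells (log2 fold change -1.78 ± 0.16 SE, adjusted p = 0.000944). Rtp4 thus differed by a like amount in both growth conditions.

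Setting the 2 genotype contrasts side by side, 14 members were called lower in both allograft and dish. They were Ifih1, Irf7, Isg15, Usp18, Ifit1, Ifit2, Ifit3, Oas1a, Oasl1, Oasl2, Rsad2, Isg20, Samd9l and Rtp4, that is, all 14 of those lower in dish. Over all genes, 40.3% of those lower in dish were also lower in allograft. Since 35 of the 38 members were lower in allograft, whatever their dish call, this overlap was largely set in advance and does not link the 2 contrasts. Another 18 members were lower in allograft and not called in dish, and Irf1, Stat2 and Gbp2 were lower in allograft and higher in dish, a pattern of 28.2% of all genes higher in dish.

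In WT cells, growth as an allograft went with higher levels of nearly every member. A total of 35 members were higher and 1 was lower in WT allografts than in WT dish cells, where 35.8% of all genes were higher and 32.2% lower, and the members' median log2 fold change was 2.24, against -0.02 over all genes. It was 2.21 on slide 1 and 2.38 on slide 2. The rise spanned a wide range. Zbp1 rose by 8.11 ± 0.21 SE on the log2 scale (limma adjusted p = 2.21e-06), Irf7 by 6.12 ± 0.13 SE (adjusted p = 1.44e-06) and Parp14 by 6.07 ± 0.16 SE (adjusted p = 2.47e-06). Oas2, Ifi44 and Oas3, dim in dish, were at least 189-fold, 218-fold and 25.9-fold higher in the tumours. By contrast Herc6 rose by 0.64 and Ifih1 by 0.59, and Ifit2 and Isg20 were not called. Oasl1 was lower in WT allografts, by a log2 fold change of -0.50 ± 0.15 SE (adjusted p = 0.0233), a call lost without WT dish replicate 1 (-0.42, adjusted p = 0.109) or WT allograft replicate 1 (-0.41, adjusted p = 0.112), which left 0 lower calls. The call of Ifih1 was lost without WT dish replicate 1 (0.54, adjusted p = 0.0646), and that of Ifit1 without WT dish replicate 1 (0.69, adjusted p = 0.102) or WT allograft replicate 2 (0.56, adjusted p = 0.0827).

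**Figure D3:**
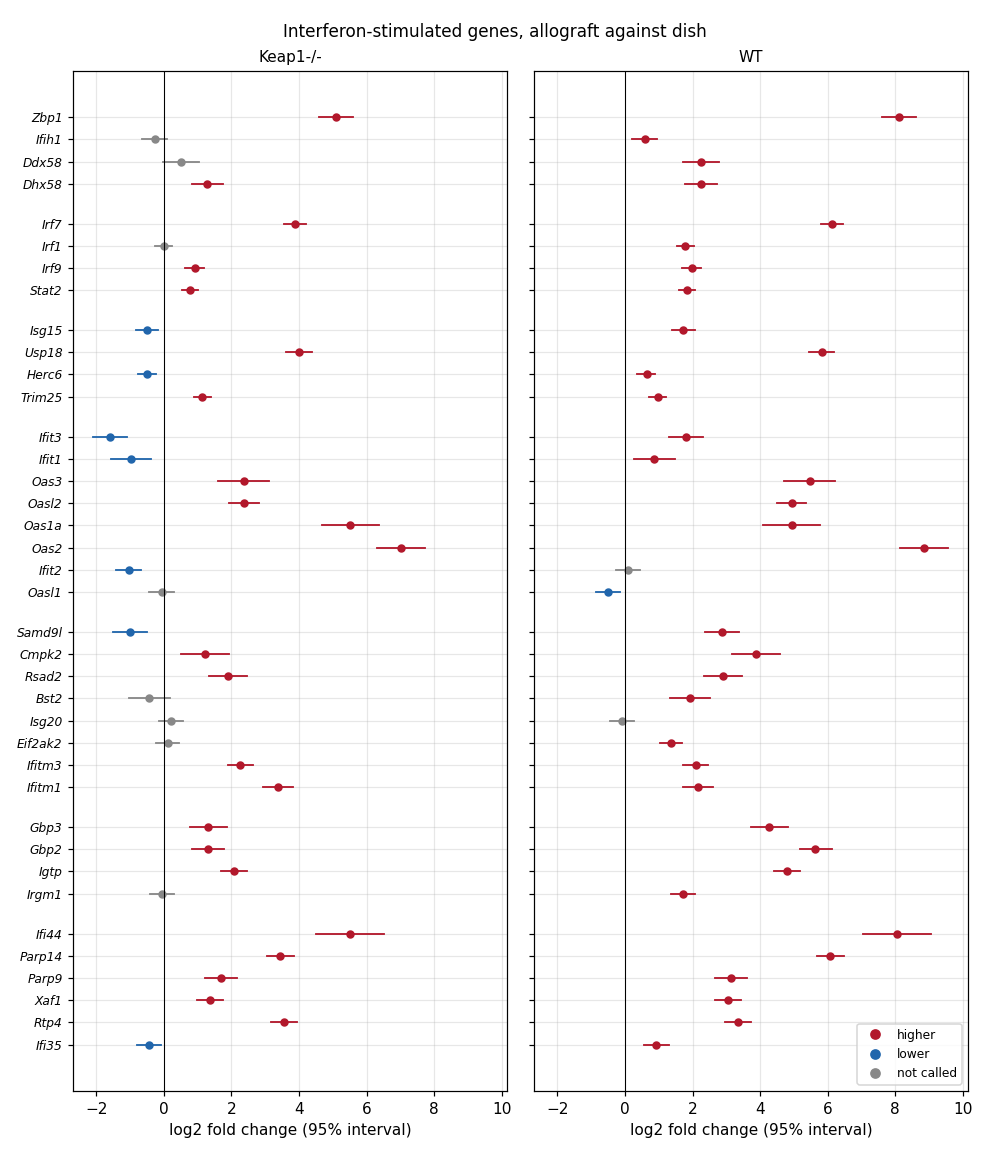
Log2 fold change of allograft against dish for the 38 interferon-stimulated genes in Keap1-/- (left) and WT (right), with 95% intervals from the limma fit and the colours of calls as in the genotype plot. In WT 35 points are called higher, and in Keap1-/- 23 are called higher and 7 lower, with dish signals of Oas2, Oas3 and Ifi44 and Keap1-/- allograft signals of Samd9l not well above background.

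Keap1-/- cells showed a divided picture. Of the 38 members, 23 were higher and 7 were lower in Keap1-/- allografts than in Keap1-/- dish cells, where 35.8% of all genes were higher and 29.1% lower. The members' median log2 fold change was 1.26 (1.08 on slide 1, 1.36 on slide 2), against 0.03 over all genes, and 1.23 with the 4 dim values at their bounds. Irf7 rose by 3.88 ± 0.13 SE (limma adjusted p = 6.98e-06), Zbp1 by 5.08 ± 0.21 SE (adjusted p = 1.18e-05) and Rtp4 by 3.56 ± 0.16 SE (adjusted p = 1.54e-05). Oas2 was at least 29.6-fold, Ifi44 at least 31.4-fold and Oas3 at least 2.35-fold higher in the tumours. The 7 lower genes were Ifit3, Ifit2, Ifit1, Isg15, Herc6, Samd9l and Ifi35. Ifit3 had a log2 fold change of -1.59 ± 0.21 SE (adjusted p = 0.000943), Ifit2 of -1.04 ± 0.15 SE (adjusted p = 0.00132) and Ifit1 of -0.98 ± 0.24 SE (adjusted p = 0.0136). All 3 IFIT genes on the list thus fell in Keap1-/- tumours, whereas in WT tumours Ifit3 and Ifit1 rose. Samd9l was at least 1.75-fold lower (adjusted p = 0.00658). With normexp background correction its log2 fold change was -0.22 and was not called (adjusted p = 0.108), so both the call and the bound rest on the background correction. Without Keap1-/- dish replicate 1 the count of lower calls was 4, Isg15 (-0.42, adjusted p = 0.11), Herc6 (-0.46, adjusted p = 0.0532) and Ifi35 (-0.38, adjusted p = 0.168) being lost. The Ifit1 call was lost without Keap1-/- dish replicate 2 (adjusted p = 0.0654) or Keap1-/- allograft replicate 1 (adjusted p = 0.071), the Isg15 call also without Keap1-/- allograft replicate 2 (adjusted p = 0.09), and the Cmpk2 call, 1.22 higher, without Keap1-/- dish replicate 2 (adjusted p = 0.0626) or Keap1-/- allograft replicate 2 (adjusted p = 0.0595). Cmpk2 also lost its call with normexp (0.50, adjusted p = 0.134), median scaling (0.35, adjusted p = 0.269) and quantile normalization (0.37, adjusted p = 0.327). Ifi35, with an adjusted p of 0.0403, lost its call without any one array other than the 2 WT dish arrays.

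Of the 35 members higher in WT allografts, 23 were also higher in Keap1-/- allografts, where 75.4% of all genes higher in WT were so, which shows no more sharing than among genes at large. Among the 23 were Irf7, Irf9, Stat2, Usp18, the OAS genes other than Oasl1, and Gbp2, Gbp3 and Igtp. A further 6 members were higher in WT allografts and lower in Keap1-/- allografts, each against the dish culture of its own line. These were Isg15, Herc6, Ifit1, Ifit3, Samd9l and Ifi35, and 7.45% of all genes higher in WT allografts were lower in Keap1-/- allografts. The lower call of Samd9l was lost with normexp background correction. Ddx58, Ifih1, Irf1, Eif2ak2, Bst2 and Irgm1, 6 of the 35, were not called in Keap1-/-, near the 17.2% of all genes higher in WT, although Ddx58 (0.51 higher in Keap1-/- allografts) was called with slide as a block (adjusted p = 0.0082). With arrays scaled to their median in place of the 75th percentile, the growth contrast moved for all genes, to a median of -1.04 in WT and -0.84 in Keap1-/-, and the members' median became 1.22 in WT and 0.39 in Keap1-/-. Relative to all genes the members' median was 2.26 higher in WT and 1.23 higher in Keap1-/-, which a change of scaling constant cannot alter, and with quantile normalization 2.48 and 0.96 higher. Directions within the growth contrast for genes with small changes, such as Ifih1 and Herc6 in WT, therefore rest on the scaling.

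The difference between the genotype contrasts in tumour and dish was tested directly as an interaction. Of the 38 members, 30 had a more negative genotype difference in allograft than in dish and 1, Ifitm1, a more positive one, where 17% of all genes were called in the first direction and 15.8% in the second. The median interaction was -1.76 on the log2 scale over the members, against 0.04 over all genes, with -1.68 on slide 1 and -1.82 on slide 2. The most negative were Gbp2 (-4.33 ± 0.27 SE, limma adjusted p = 0.000246), Samd9l (-3.88 ± 0.29 SE, adjusted p = 0.000422) and Ifit3 (-3.40 ± 0.29 SE, adjusted p = 0.000619). Zbp1 had -3.03 ± 0.29 SE. The Samd9l value rests on dim Keap1-/- allograft signals, and the interactions of Oas2, Oas3 and Ifi44 contain dim dish signals and are not ranked here. The Oas2 call was lost without any one of 5 arrays (adjusted p 0.051 to 0.0618), as was that of Ifi44 (adjusted p 0.0531 to 0.0626). Ifitm1 had an interaction of 1.21 ± 0.26 SE (adjusted p = 0.0157), which was lost without Keap1-/- dish replicate 1 (1.08, adjusted p = 0.0558), WT dish replicate 1 (1.15, adjusted p = 0.0512) or WT allograft replicate 2 (1.10, adjusted p = 0.0549), leaving 0 members in that direction. Without Keap1-/- dish replicate 2 there were 2, Oas1a being added (1.13, adjusted p = 0.0366).

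The 7 members with no called interaction were Trim25, Oas1a, Oasl1, Rsad2, Isg20, Ifitm3 and Rtp4. For Oasl1 the interaction was 0.43 (95% interval -0.08 to 0.94), for Isg20 0.30 (-0.21 to 0.81) and for Rtp4 0.22 (-0.32 to 0.77), and these intervals include 0 as well as sizeable differences between tumour and dish. Rsad2 had -1.0 ± 0.32 SE (limma adjusted p = 0.0606) and was called with slide as a block (adjusted p = 0.028). Dhx58 (-0.94 ± 0.27 SE, adjusted p = 0.0427) lost its call with that block (adjusted p = 0.0532) and without any one array except WT allograft replicate 1. Ifih1 (-0.86, adjusted p = 0.0258) lost it without any one of the dish or Keap1-/- allograft arrays (adjusted p 0.0532 to 0.0841).

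The 8 arrays of each gene were also ordered without a fit. Between the genotypes, both Keap1-/- arrays lay below both WT arrays for 35 members in allograft (34.5% of all genes) and 22 in dish (31.7%), and above them for 3 in allograft (35.7%) and 9 in dish (27%). Between growth conditions, both allograft arrays lay above both dish arrays for 35 members in WT (42.3%) and 26 in Keap1-/- (43.2%), and below them for 1 in WT (41%) and 10 in Keap1-/- (38.7%). Both WT allograft arrays lay above the other 6 for 32 of the 38 members (84.2%), where 17.9% of all genes tested had that order. The 6 exceptions were Trim25, Ifitm1 and Ifitm3, for which both Keap1-/- allograft arrays were above the other 6 (19.3% of all genes), and Ifit2, Oasl1 and Isg20. Both Keap1-/- allograft arrays lay below the other 6 for 10 members, namely Ifih1, Isg15, Herc6, Ifit1, Ifit2, Ifit3, Bst2, Samd9l, Irgm1 and Ifi35 (26.3%, against 16.1% of all genes). For 13 members, among them Irf7, Usp18, Rsad2, Oasl2 and Rtp4, both Keap1-/- dish arrays lay below the other 6 (34.2%, against 8.41% of all genes), and for no member did they lie above (8.73% of all genes). Both WT dish arrays lay below the other 6 for 8 members, among them Irf1, Stat2, Gbp2 and Igtp (13.6% of all genes), and above for Oasl1 (18.2%).

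The genes that make, receive and transmit the interferon signal were examined on lists chosen by function. Of 6 tested interferon ligands, 1 was lower and 1 higher in Keap1-/- allografts (16.7% each), where 21.3% of all genes were lower and 20.5% higher. Ifnb1, the interferon beta gene, was at -8.73 and -8.47 in Keap1-/- allografts, not well above background, against -5.67 and -5.01 in WT allografts, and was at least 2.64-fold lower (limma adjusted p = 0.000218). On the dish arrays Ifnb1 was likewise not well above background, at levels between -8.81 and -8.46. Ifne, the interferon epsilon gene known from reproductive epithelium, went the other way, at -3.64 and -3.40 in Keap1-/- allografts, against -7.31 and -7.35 in WT allografts, at least 13.3-fold higher (adjusted p = 9.35e-05). Ifng was at -6.14 and -6.47 in Keap1-/- allografts and at -6.54 and -5.76 in WT allografts, and these overlapped. Of the 9 receptor and kinase genes 5 (55.6%) were lower in Keap1-/- allografts and 3 (33.3%) in dish, against 21.3% and 9.78% of all genes. The receptor subunit gene Ifnar2 had log2 fold changes of -0.36 in allograft (adjusted p = 0.0303) and -0.76 in dish (adjusted p = 0.00412), while Jak1 and Tyk2 were called in neither.

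**Figure D4:**
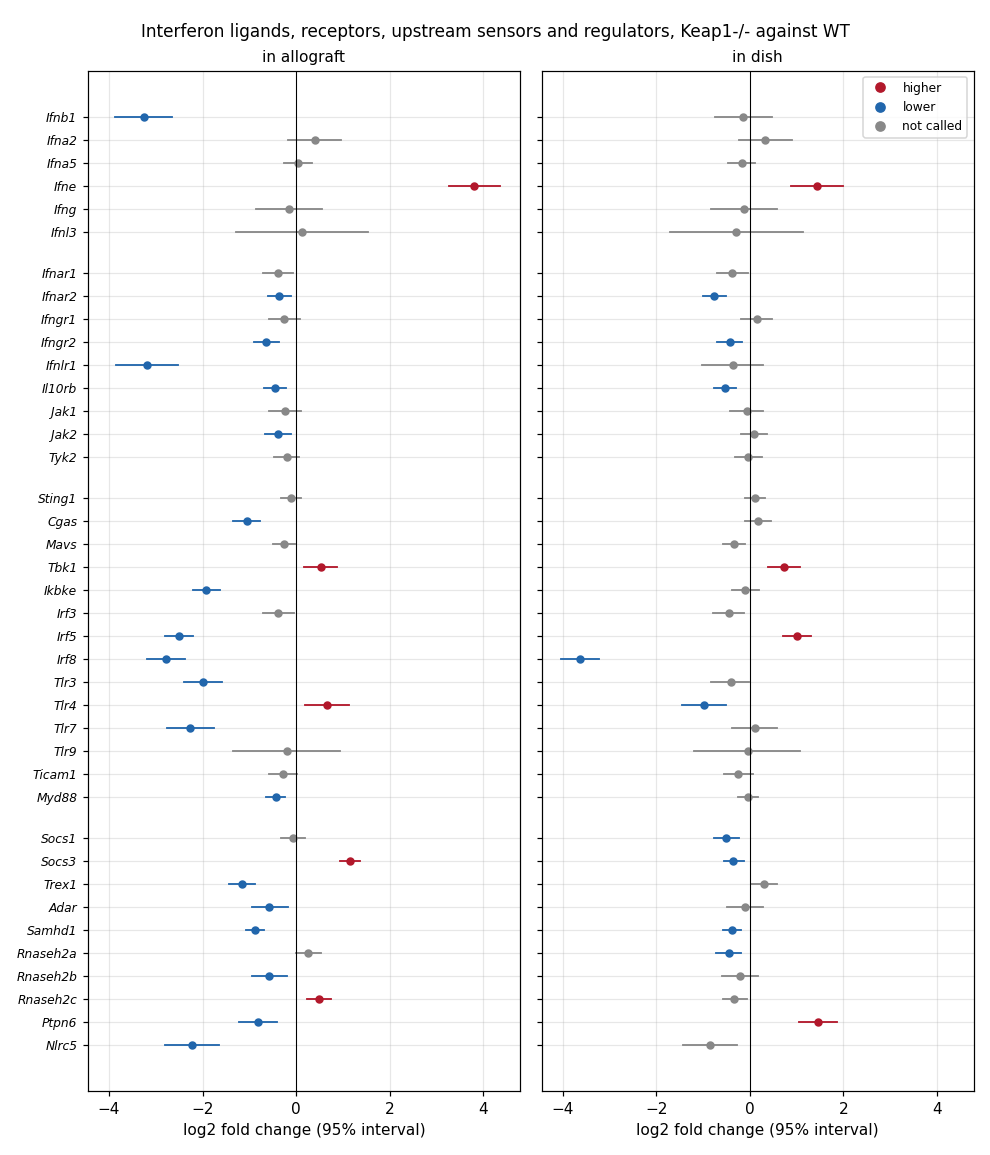
Log2 fold change of Keap1-/- against WT in allograft (left) and in dish (right) for interferon ligands, receptors and kinases, upstream sensing and signalling genes, and regulators, from top to bottom, with 95% intervals from the limma fit. The fitted values are -3.26 for Ifnb1 and 3.81 for Ifne in allograft, each with 1 genotype not well above background, and Sting1, Jak1 and Tyk2 have intervals that include 0 in both panels.

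Of 14 genes listed for sensing and signalling upstream of the interferons, 7 (50%) were lower and 2 (14.3%) higher in Keap1-/- allografts. Over all genes these shares were 21.3% and 20.5%. In dish 2 were lower and 2 higher (14.3% each), against 9.78% and 11.4% of all genes. Irf5 and Irf8, factors abundant in macrophages and dendritic cells, had log2 fold changes of -2.50 ± 0.12 SE (limma adjusted p = 4.76e-05) and -2.78 ± 0.16 SE (adjusted p = 9.04e-05) in allograft. Irf8 was also lower in dish, at -7.67 and -7.21 in Keap1-/- cells, not well above background, against -3.74 and -3.89 in WT cells. Irf5 had the reverse order in dish, at -3.03 and -3.19 in Keap1-/- cells, against -4.02 and -4.2 in WT cells. Among the RNA-sensing toll-like receptors, Tlr7 had -2.26 (adjusted p = 0.000401) and Tlr3 -2.0 (adjusted p = 0.000295). Cgas, the cytosolic DNA sensor, was at 0.23 and 0.10 in Keap1-/- allografts, against 1.14 and 1.32 in WT allografts (log2 fold change -1.06 ± 0.12 SE, adjusted p = 0.00091), and its partner Sting1 was called in neither condition. Of 10 genes that restrain the pathway 6 (60%) were lower and 2 (20%) higher in Keap1-/- allografts, against 21.3% and 20.5% of all genes. Socs3, a feedback inhibitor induced by cytokines of the interleukin 6 family, was higher there by 1.15 ± 0.09 SE (adjusted p = 0.00022), and Trex1, the exonuclease that clears cytosolic DNA, was lower by a log2 fold change of -1.16 ± 0.11 SE (adjusted p = 0.000617).

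Most markers of host immune cells other than neutrophils moved with the members in tumours. The summed scaled intensity of the 38 members was 68.8 and 76.1 in Keap1-/- allografts, against 149 and 187 in WT allografts, in units of the 75th percentile of each array. Sums weigh bright genes most, and the brightest member in Keap1-/- allografts was Ifitm3, which went the other way. The members' median level was -1.28 and -1.19 in Keap1-/- allografts, against 0.87 and 1.24 in WT allografts. The summed intensity of 17 leukocyte and macrophage markers was 32.5 and 32.6 in Keap1-/- allografts, against 119 and 131 in WT allografts. By the test 13 of the 17 were lower and 1 higher, where 21.3% of all genes were lower and 20.5% higher. In dish the same sums were 2.06 and 1.98 in Keap1-/- cells, against 2.91 and 2.49 in WT cells, and 6 to 8 of the 17 were well above background per dish array. Coro1a, Csf1r, C1qb, Mrc1, Mpeg1 and Cd14 were so on all 4 dish arrays, and 9 of the 17, among them Ptprc, Adgre1, Ccr2, Fcgr1, Itgam and Cx3cr1, on no dish array. The members summed to 31.8 and 31.6 in Keap1-/- dish cells, against 38.9 and 38.2 in WT dish cells. Lymphocyte markers were lower in Keap1-/- allografts for 10 of 14 genes and plasmacytoid dendritic cell markers for 3 of 3. The lymphocyte sums were 0.512 and 0.667 in Keap1-/- allografts, against 3.00 and 3.11 in WT allografts, and the plasmacytoid sums 0.0294 and 0.0381, against 0.0914 and 0.111.

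**Figure D5:**
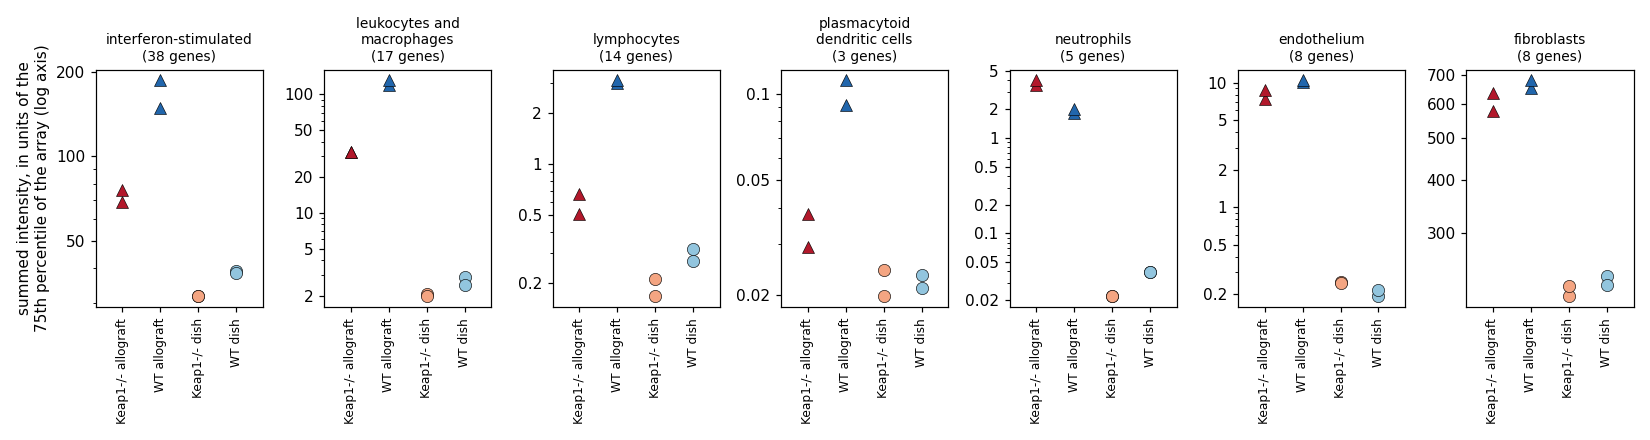
Summed scaled intensity (y axis, log scale, in units of the 75th percentile of the array) of the 38 interferon-stimulated genes and of 6 marker lists, with 1 point per array, groups along the x axis and a scale of its own in each panel. In allograft the members' sums are 68.8 and 76.1 for Keap1-/- and 149 and 187 for WT, and the leukocyte and macrophage sums are 32.5 and 32.6 for Keap1-/- and 119 and 131 for WT.

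Neutrophil sums had the reverse order, while endothelial and fibroblast sums were lower in Keap1-/- allografts by smaller margins. Neutrophil markers summed to 3.60 and 3.97 in Keap1-/- allografts, against 1.81 and 2.00 in WT allografts, with 2 of 5 genes higher and 1 lower. The brightest of them, S100a8 and S100a9, weigh most in these sums. The median log2 fold change of the 5 was 0.91. Their median level had the opposite order, at -4.02 and -3.70 in Keap1-/- allografts, against -2.56 and -2.17 in WT allografts. That median level was the level of Csf3r, the 1 gene called lower. Endothelial markers summed to 7.45 and 8.67 in Keap1-/- allografts, against 10.2 and 10.4 in WT allografts, with 3 of 8 lower. Fibroblast markers summed to 577 and 636 in Keap1-/- allografts, against 654 and 681 in WT allografts, with 3 of 8 lower and 2 higher. All 8 were well above background on every dish array as well, so they do not mark host cells alone. Over all genes, 21.3% were lower and 20.5% higher in Keap1-/- allografts. The part of these cell types in the members' tumour differences was not tested, and in such bulk samples fewer cells of a type and less RNA per cell cannot be told apart.

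Several probes were tested for 14 members. Their probes had the same sign for all 14 in the allograft genotype contrast, and opposite signs for 4 of the 14 in dish. The widest gap between probes in the allograft genotype contrast was 1.45 on the log2 scale, for Herc6, whose other probe gave -2.22. In the growth contrast Oas2 had the widest gap, its other probe giving 3.45 in WT and 0.61 in Keap1-/-, and Trim25 had -0.96 in WT with its second probe.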

How the data were processed

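Total RNA from 8 samples was hybridised to single-colour Agilent arrays, 2 per group, on 2 slides of 4 arrays. Per the file headers, the authors' scanner output was made with Feature Extraction 10.7.3.1 and holds, per spot, a processed signal intensity with background removed and flags for signal above background, while the deposited value table repeats these intensities rounded (largest difference 0.5 percent). Their genome build is not given in the sources used here.

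Control spots were left out, spots of a probe were averaged, and log2 processed intensity minus each array's 75th percentile was tested in R 4.3.3 with limma 3.58.1 (lmFit and eBayes over the 8 arrays, 4 groups, 5 contrasts, Benjamini-Hochberg over all genes tested, calls at 0.05). A probe was tested where at least 1 group had both arrays well above background, and the probe with the highest mean level stood for its gene. Of 41174 probes 26690 had a symbol through RefSeq. Scripts were tested on simulated data. Where a probe was well above background on neither array of 1 group, "at least" folds raise its signals there to a floor. The floor is the lowest signal among probes well above background on that array, and signals already above it are kept. Some dim signals lie above the floor, so these folds are bounds by this convention only. The number of arrays limits the precision.

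Slide 1 held replicate 1 of every group and slide 2 replicate 2, per the file headers, and replicate deviations correlated at 0.25 to 0.43 between the groups, so slide, or replicate number, was also fitted as a block. Other alternatives were normexp background correction (offset 50, on median spot signals in place of mean ones), scaling to the median, quantile normalization, the unscaled value table, 2 other filters, the mean of probes, fits of only the 2 groups compared and leaving out each array. Members and lists were chosen with earlier results of these data known. Members given array by array were the 3 of each role with the largest allograft genotype difference, those called higher in Keap1-/-, and the 5 largest interactions each way; others were added after their values were seen and are named as such. Promoter windows came from RefSeq (GRCm38.p6). A further pathway gene is not reported here.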

Additional observations from a re-analysis of the deposited data

Results flagged for a closer look

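For 31 members the difference between Keap1-/- and WT was not the same in tumours and in dish culture, by the interaction term of the limma fit. All values are log2, genotype difference in allograft minus that in dish. Among sensors, Ddx58 had -1.74, Ifih1 -0.86, Dhx58 -0.94 and Zbp1 -3.03. Among transcription factors, Irf1 had -1.79, Irf7 -2.25, Irf9 -1.05 and Stat2 -1.06, and Irf1 and Stat2 were called in opposite directions in the 2 conditions. In the ISG15 system Isg15 had -2.23, Usp18 -1.83 and Herc6 -1.13. Among IFIT and OAS genes, Ifit1 had -1.85, Ifit2 -1.14, Ifit3 -3.40, Oas2 -1.82, Oas3 -3.10 and Oasl2 -2.56, those of Oas2 and Oas3 resting on dish signals not well above background, and the Oas2 call being lost without any one of 5 arrays (adjusted p 0.051 to 0.0618). Among other effectors, Cmpk2 had -2.65, Eif2ak2 -1.25, Bst2 -2.36 and Samd9l -3.88, and Ifitm1 had 1.21 in the opposite direction. The GTPases Gbp2, Gbp3, Igtp and Irgm1 had -4.33, -2.95, -2.72 and -1.77. Of the other genes, Ifi35 had -1.37, Ifi44 -2.52, Parp9 -1.45, Parp14 -2.62 and Xaf1 -1.67, the Ifi44 value again resting on dim dish signals, with its call lost without any one of 5 arrays (adjusted p 0.0531 to 0.0626).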

How the results depend on the processing

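The 35 members lower in Keap1-/- allografts numbered 35 under every alternative that tested all 38, and 30 of 33 when every array had to be well above background. The 3 higher ones there numbered 1 with normexp, quantile normalization, unscaled values, no filter on dim probes or only the 2 groups compared, and 1 to 3 with 1 array left out. In dish the 3 higher calls numbered 1 with normexp, median scaling or unscaled values, 5 with the replicate block and 1 to 3 with 1 array left out. The 1 lower call of WT growth numbered 5 with median scaling, 0 with quantile normalization or unscaled values and 0 to 1 with 1 array left out. The 7 lower calls of Keap1-/- growth numbered 14 with median scaling, 4 unscaled and 4 to 7 with 1 array left out. The 1 positive interaction numbered 2 with the mean of probes and 0 to 2 with 1 array left out. Under median scaling, WT growth turned negative for Ifih1 (-0.43), Herc6 (-0.38), Trim25 (-0.06), Ifit1 (-0.15), Ifit2 (-0.93) and Ifi35 (-0.09), and Keap1-/- growth for Stat2 (-0.09), Isg20 (-0.66) and Eif2ak2 (-0.76). The median over all genes moved to -1.04 and -0.84 there, by construction. With normexp the Oas1a interaction was -1.29; the cause was not tested. The share of all called genes that was higher, 53.7% in dish, 49% in allograft, 52.7% in WT growth, 55.2% in Keap1-/- growth and 48.2% in the interaction, was 37.3%, 25.9% and 27.3% with median scaling in dish, WT growth and Keap1-/- growth, 76.4%, 30.5%, 78.5% and 23.3% unscaled in dish, allograft, WT growth and the interaction, and 44.5% with quantile normalization in Keap1-/- growth. Calls of members moved by the replicate block are given beside their results, and it changed no other call of theirs. Signal over background limits Oas2, Oas3 and Ifi44 in dish and Samd9l in Keap1-/- allografts.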

Other observations

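Of the 14 genes listed for sensing and signalling upstream of the interferons, 6 (42.9%) were higher and 4 (28.6%) lower in Keap1-/- allografts than in dish. Over all genes these shares were 35.8% and 29.1%. In WT 7 (50%) were higher and 3 (21.4%) lower, against 35.8% and 32.2% of all genes. The list had no common direction in either line, and in Keap1-/- its shares were near those of all genes. The genes described next were picked after their values were seen. Tlr7, a sensor of single-stranded RNA in endosomes, was at least 51.9-fold higher in WT allografts than in WT dish cells (limma adjusted p = 4.7e-06) and was higher by 3.69 on the log2 scale in Keap1-/- allografts than in Keap1-/- dish cells (adjusted p = 3.15e-05). Irf5 was higher in allografts by 1.02 in Keap1-/- and by 4.52 in WT on the log2 scale, a difference between the lines of -3.50 ± 0.17 SE (adjusted p = 0.000126). Cgas, in contrast, had a log2 fold change of -1.11 ± 0.12 SE in Keap1-/- allografts against dish (adjusted p = 0.000386) and of 0.14 in WT (adjusted p = 0.333), with an interaction of -1.24 (adjusted p = 0.00282). Socs3, from the list of genes that restrain the pathway, was higher in allografts of both lines, by 2.51 in Keap1-/- and by 1.01 in WT on the log2 scale, with an interaction of 1.5 ± 0.12 SE (adjusted p = 0.000526). Ifnb1 was at least 2.5-fold higher in WT allografts than in WT dish cells, and was not well above background in either Keap1-/- group.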
